A study of Mus musculus with 8 samples.

Results

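Accessible chromatin was examined at a set of 10 epithelial adhesion and junction genes, Epcam, Cdh1, Cldn3, Cldn4, Cldn7, Ocln, Tjp1, F11r, Pdpn and Itga6. A region of open chromatin was counted for a gene when it overlapped the gene body or the 20 kb on either side, and a region near 2 of the genes was counted once, for the nearer start. By this rule 84 of the 57124 accessible regions of the data set belonged to the 10 genes. The rule uses positions alone and no measured level.

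The data come from ATAC-seq, in which the transposase Tn5 cuts open chromatin and inserts sequencing adapters, on sorted medullary thymic epithelial cells (mTECs) of wild-type mice, which the study's methods describe as BL6N6 animals a few weeks old. The 8 samples form 4 groups with 2 biological replicates each: cells negative for the tissue-restricted antigen Tspan8 (Tspan8neg) and cells positive for it (Tspan8pos), each divided by the maturation marker MHC class II into MHCIIlow and MHCIIhigh. The table has 8 columns of read counts whose names match no sample label, so they were not used, and depth was not analysed here. Described here are the position, width and sequence of the regions, merged over all samples. No statement is made on any single group, and no replicate error is given. According to the methods, cells had been sorted as CD45 negative, CDR1 negative and Epcam positive, so they were chosen for the product of 1 of the 10 genes.

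Epithelial sheets are sealed near their apical side by tight junctions, in which claudins and occludin span the membrane and zonula occludens proteins such as Tjp1 tie them to actin. Below these lie adherens junctions, built on the cadherin Cdh1, and at the base integrins such as Itga6 bind laminin. The thymic medulla is a loose epithelial network rather than a sheet, yet claudins 3 and 4 are known as markers of mTECs and of their precursors. Pdpn is known as a marker of the cells at the border of cortex and medulla. Epcam is a general surface marker of thymic epithelial cells, and the study sorted mTECs as Epcam positive and CDR1 negative.

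The stretches just before the starts of Epcam, Cldn3 and Cldn4 are shown first. These 3 genes are in the list of mTEC markers used below, although Epcam marks thymic epithelium in general. Their upstream stretches were accessible over all or nearly all of their length. Each line gives the 250 bases before the transcription start, 5′ to 3′ on the strand of the gene, from RefSeq on GRCm38.p6, the build behind mm10. Capitals mark every match to 1 of 6 short motifs, searched on both strands: the E-box CAGGTG, 2 forms of the ETS core (CCGGAA and AGGAAG), the Grainyhead-like core AACNNGTT, the Krüppel-like form GGGNGTGG and the AP-1 site TGANTCA.
Epcam, chr17:87635729-87635978, plus strand: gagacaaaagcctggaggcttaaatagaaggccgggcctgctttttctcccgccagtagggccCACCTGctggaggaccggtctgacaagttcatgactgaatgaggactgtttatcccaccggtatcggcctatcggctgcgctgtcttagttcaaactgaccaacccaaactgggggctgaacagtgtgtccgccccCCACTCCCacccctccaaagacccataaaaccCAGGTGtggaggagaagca
Cldn3, chr5:134985964-134986213, plus strand: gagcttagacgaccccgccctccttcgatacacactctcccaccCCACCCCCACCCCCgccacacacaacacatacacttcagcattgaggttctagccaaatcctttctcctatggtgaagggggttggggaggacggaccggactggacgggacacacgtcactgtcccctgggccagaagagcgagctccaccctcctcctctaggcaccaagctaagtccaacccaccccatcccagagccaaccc
Cldn4, chr5:134946935-134947184, minus strand: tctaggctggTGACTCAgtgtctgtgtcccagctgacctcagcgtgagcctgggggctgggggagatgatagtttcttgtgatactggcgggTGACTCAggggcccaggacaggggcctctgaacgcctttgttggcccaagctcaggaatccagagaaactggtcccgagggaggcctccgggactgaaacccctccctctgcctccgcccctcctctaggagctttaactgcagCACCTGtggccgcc
The stretch before Epcam held 2 E-boxes, the nearer 19 to 14 bases before the start, and 1 Krüppel-like match 51 to 44 bases before it. That of Cldn4 held 2 AP-1 matches, which began 240 and 158 bases before the start, and an E-box 14 to 9 bases before it. That of Cldn3 held 2 Krüppel-like matches that overlap each other and none of the other motifs. A match of letters is a description of the sequence and says nothing of binding.

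The next pair shows the highest and the lowest observed to expected ratio of CG pairs among the 8 of the 10 genes with an entry in the table, again 250 bases before the start from RefSeq, with CG pairs in capitals.
Tjp1, chr7:65371245-65371494, minus strand: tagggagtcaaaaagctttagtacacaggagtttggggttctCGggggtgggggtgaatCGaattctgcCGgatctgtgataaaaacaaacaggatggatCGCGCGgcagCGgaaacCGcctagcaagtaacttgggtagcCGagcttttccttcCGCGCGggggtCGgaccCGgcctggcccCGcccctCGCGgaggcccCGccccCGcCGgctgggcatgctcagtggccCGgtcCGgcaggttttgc
Pdpn, chr4:143299565-143299814, minus strand: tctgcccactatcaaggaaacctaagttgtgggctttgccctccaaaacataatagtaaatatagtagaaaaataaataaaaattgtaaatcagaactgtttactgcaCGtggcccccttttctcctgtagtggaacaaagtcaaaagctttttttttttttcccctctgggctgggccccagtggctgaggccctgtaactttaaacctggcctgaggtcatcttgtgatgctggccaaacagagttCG
The Tjp1 stretch held 22 CG pairs, an observed to expected ratio of 0.890, and all 250 of its bases lay in an accessible region. The Pdpn stretch held 2 CG pairs, a ratio of 0.172, and only the 66 bases next to the start were accessible. Over the 16522 protein-coding genes with an entry in the same table the median ratio was 0.558 (quartiles 0.223 and 0.807). The whole 250 bases were also accessible at Cldn3, Cldn4, F11r and the outermost start of Ocln, while 222 of 250 were accessible at Epcam. Cdh1 and Itga6 have no entry in the table used.

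Each of the 10 genes had an accessible region over at least 1 of its transcription starts, compared with 56.4% of all 21938 protein-coding genes. When a promoter region was defined more narrowly, with its centre between 1000 bases before and 100 bases after a start, 9 of the 10 genes had one, compared with 48.6% of protein-coding genes. The gene left out by this definition was Itga6, whose region had its centre 112 bases past the nearest start. No test is attached to these counts, since the genes were picked as epithelial genes and are not replicates.

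Among the genes of the tight junction strand, the start region of Cldn3 was 585 bases wide (chr5:134985707-134986291), and it was centred 215 bases before the start. That of Cldn4, a claudin of many moist epithelia, was 418 bases wide (chr5:134946887-134947304) and centred 161 bases before its start. Both single-exon claudins thus had their open stretch mainly on the upstream side.

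Cldn7, the claudin that binds Epcam at the lateral membrane, had a region of 422 bases (chr11:69965219-69965640). This region covered the innermost of 3 annotated starts, at 69965396, with its centre 33 bases past it. The other 2 starts, at 69964779 and 69964835, lay 440 and 384 bases from the nearest edge of a region. Cldn7 was the only member with an uncovered start among the basic transcripts of the annotation.

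Ocln, which encodes occludin, had a start region of 1083 bases (chr13:100552209-100553291) that covered all 4 of its starts. Its width was at percentile 94.9 of all promoter regions.

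Tjp1, which encodes the scaffold protein ZO-1, had the widest start region of all members, 1164 bases (chr7:65370386-65371549, percentile 96.5 among promoter regions). It covered both basic starts of the gene. Transcripts of the comprehensive annotation begin further upstream, and a region of 178 bases (chr7:65527666-65527843), centred 157 kb before the basic starts, lay over their starts at 65527696 and 65527781. This narrow region had a GC content of 82.6% and an observed to expected CG ratio of 1.19, both the highest among the 84 regions.

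F11r, the junctional adhesion molecule JAM-A, had a region of 584 bases (chr1:171437260-171437843) centred 16 bases past its start. The long non-coding gene Gm26641 shares this promoter region, so the share of either gene in the open chromatin there cannot be told apart.

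At the adherens junction, Cdh1, which encodes E-cadherin, had a start region of 553 bases (chr8:106603169-106603721) over both of its starts. This is close to the middle of all promoter regions, at percentile 58.9.

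Epcam was the only member with 2 separate regions over different starts. The outer start had a region of 263 bases (chr17:87635757-87636019), narrower than most promoter regions, whose median was 482 bases. The inner start, at 87636682, lay in a region of 1022 bases (chr17:87636305-87637326) that overlaps an exon and a UTR of the gene and had its centre 133 bases past that start. The wide region was thus at the inner start, and the narrow region at the outer start, whose upstream sequence is printed above.

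The 2 remaining genes are markers that split thymic epithelium. Pdpn, a mucin-type surface glycoprotein that binds the platelet receptor CLEC-2, had the narrowest start region, 247 bases (chr4:143299384-143299630), at percentile 21.95 of promoter regions. Itga6, the laminin-binding integrin subunit of hemidesmosomes, had a region of 803 bases (chr2:71786689-71787491), which covered both basic starts. The 11 regions at own starts thus ranged from 247 to 1164 bases with a median of 584 bases, and their GC content ranged from 57.4% to 72.5%.

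**Figure D1:**
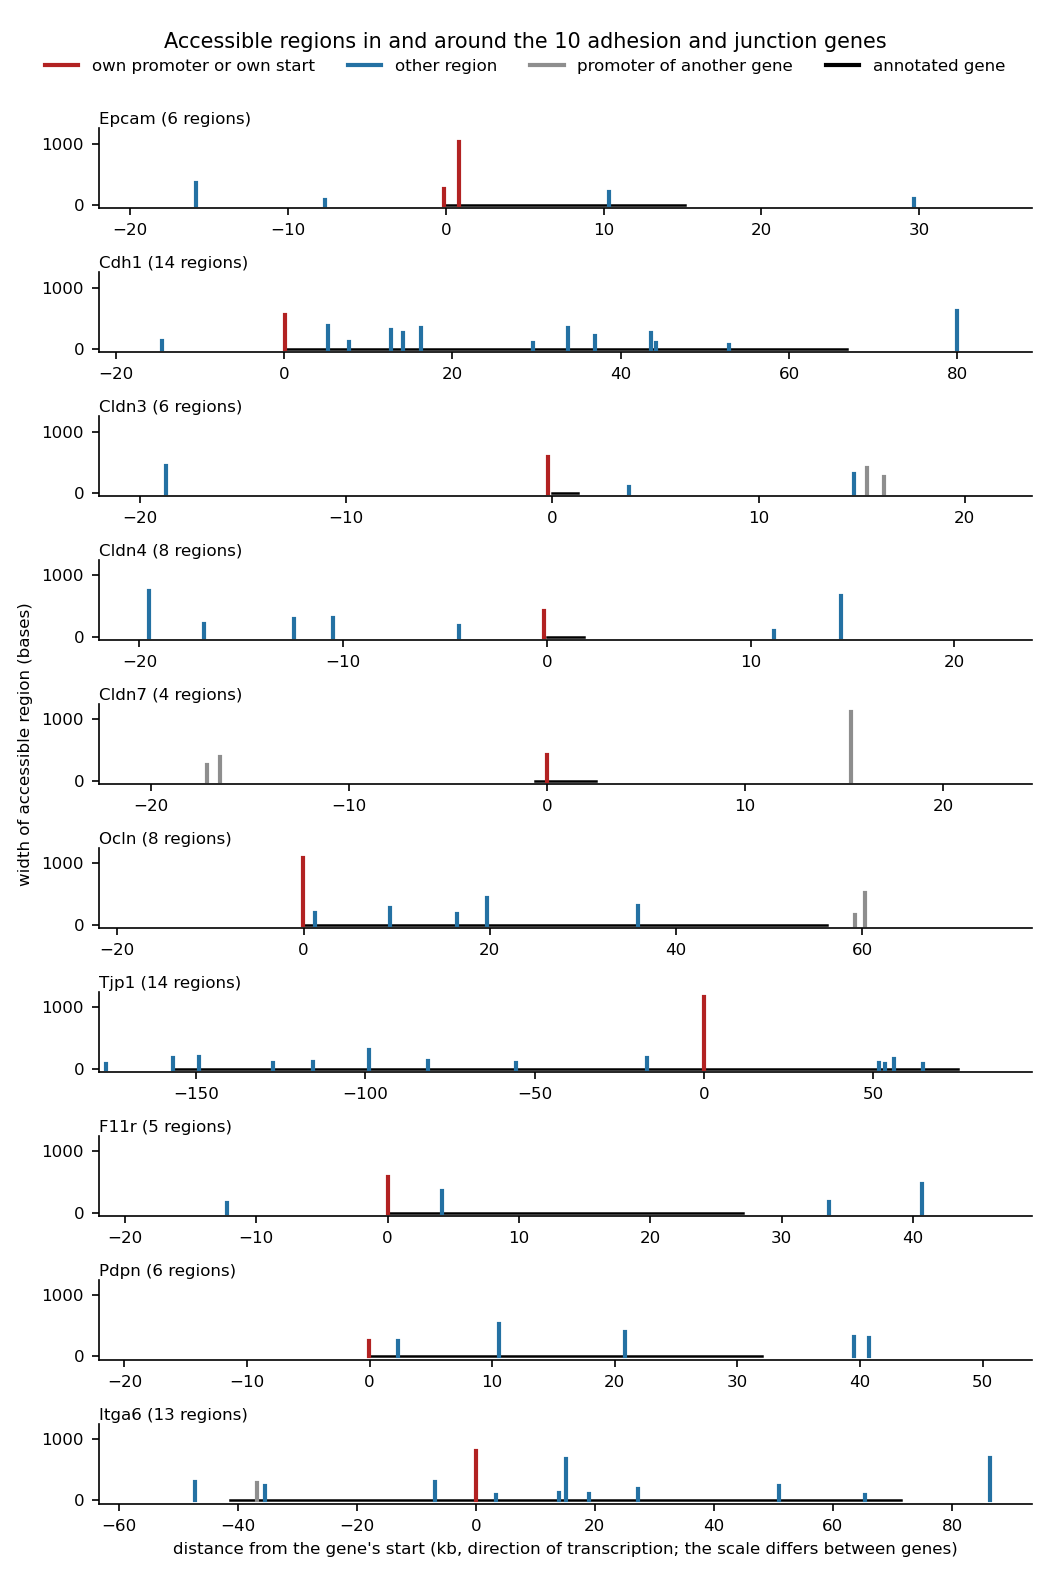
Accessible regions along each of the 10 genes, with distance from a covered start in kb in the direction of transcription on the horizontal axis and region width in bases as bar height. Red bars are at the gene's own promoter or start, grey bars at the promoter of another gene, blue bars elsewhere, and the black line is the annotated gene; Cdh1, Tjp1 and Itga6 carry the most regions, with 14, 14 and 13.

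Away from the starts, the members' further regions differed in position, number and width. By the position of their centre, 29 of the 84 regions were in introns of their gene, 19 outside the gene, 10 in gene body upstream of the basic starts, 8 at the promoter of another gene, 5 in own exons and 4 in exons of a neighbour, beside the 9 promoter regions. A region whose edge alone reached a neighbour's exon was counted as outside the gene. The 5 regions in own exons include the wide region of Epcam and the start region of Itga6. By centre, 20.2% of the 84 regions were at a promoter of any gene, compared with 21.9% of all regions, so the mix of promoter and other regions was near that of the whole set.

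Cdh1 had the most intronic regions, 11, and 10 of them were in intron 2, which is 44.6 kb long and makes up most of the gene. They lay between 5.18 and 44.2 kb past the start and were 90 to 365 bases wide. The widest was 365 bases (chr8:106608379-106608743) and the nearest to the start. A further 5 of these 10 regions were wider than 250 bases, namely those of 306, 257, 347, 345 and 251 bases. The last intronic region, in intron 5, was only 69 bases wide. A region of 617 bases 79.9 kb past the start overlaps an exon of the neighbouring gene Tango6, and it was counted because it lies within the 20 kb flank. The only region before the gene was 126 bases wide, 14.5 kb upstream.

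Itga6 had 5 regions in intron 1, 1 in intron 11 and 1 in intron 24. The widest, 680 bases (chr2:71801747-71802426), was in intron 1, 15.1 kb past the start, and was wider than the median promoter region of 482 bases. The other 6 intronic regions were 93 to 240 bases wide. That of 240 bases, in intron 11, lay over a start of the comprehensive annotation at 71838081. Upstream, regions of 303, 239 and 306 bases lay 6.84, 35.4 and 47.1 kb before the start. A region of 700 bases beyond the gene overlaps an exon of its neighbour Pdk1. A region of 278 bases at 36.7 kb before the start is the promoter of the non-coding gene Gm17250.

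Pdpn differed from the other members in that its start region was narrower than all of its further regions. These were 249, 392 and 533 bases wide in intron 1, at 2.29, 20.8 and 10.6 kb past the start, and 294 and 319 bases wide beyond the end of the gene. The widest, 533 bases (chr4:143288631-143289163), was 10.6 kb past the start and had no match to any of the 6 motifs in its central 200 bases.

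Ocln had 5 intronic regions, 2 in intron 1, 1 in intron 3 and 2 in intron 4, between 168 and 441 bases wide. The widest (chr13:100532830-100533270) lay 19.4 kb past the start. Its 2 downstream regions, 521 and 153 bases wide, are promoters of Gtf2h2, a subunit of a general transcription factor, and lie 60.0 and 58.9 kb from the start of Ocln.

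Tjp1 had many but narrow regions. Apart from the start region, its 13 regions were 75 to 295 bases wide with a median of 105 bases, and 1 of them reached 200 bases. Of these, 8 lay in the part of the gene body before the basic starts. F11r had 1 intronic region, of 354 bases, 4.13 kb past its start, as well as 1 of 157 bases before the gene and 2 of 171 and 462 bases after it. Epcam had no intronic region. Its further regions were 356 and 80 bases wide before the gene, 216 bases across an exon and 102 bases after the gene.

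**Figure D2:**
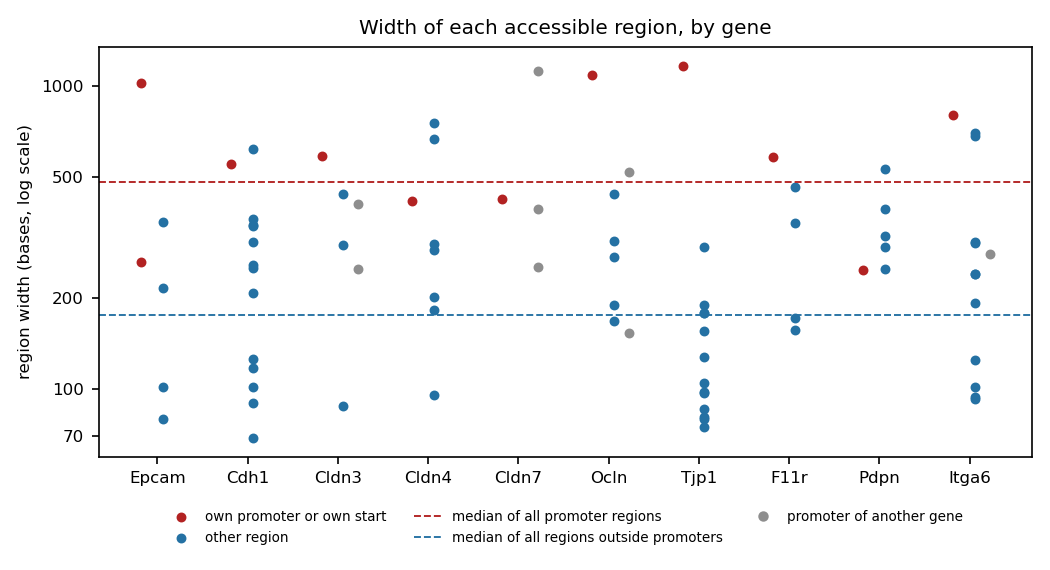
Width in bases, on a log axis, of each accessible region, by gene; red points are at the gene's own promoter or start, grey at the promoter of another gene and blue elsewhere, and dashed lines are medians of all promoter regions (482 bases) and of all other regions (176 bases). Pdpn is the gene whose start region, at 247 bases, lies below all of its other regions.

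Cldn3 and Cldn4 are neighbours on chromosome 5, transcribed away from each other, with 39.3 kb between their starts. Between the promoter regions lay 6 further regions, and all of them were in the 16.5 kb from 134951176 to 134967707. As a whole this stretch is nearer to Cldn4, but its last region is nearer to the start of Cldn3. The 18.0 kb next to the Cldn3 promoter region held none. The widest of the 6 was 751 bases (chr5:134966079-134966829), wider than either promoter region, and a region of 439 bases (chr5:134967269-134967707) followed after a gap of 439 bases. Gaps this small or smaller made up 3.54% of all gaps between neighbouring regions, whose median was 14737 bases. This close pair falls to different genes under the counting rule, the wider region to Cldn4 and the other to Cldn3. The other 4 regions were 182, 301, 287 and 201 bases wide.

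Cldn7 had no region away from promoters. Its 3 further regions were promoters of its neighbours, 2 at Slc2a4, the insulin-regulated glucose transporter, and 1 of 1119 bases at Ctdnep1 and Gm44349. On the far side of Cldn3, 2 regions of 406 and 249 bases were promoters of the neighbouring gene Wbscr25, and 2 of 88 and 299 bases lay in its exons. On the far side of Cldn4, regions of 669 and 96 bases overlap exons of Mettl27.

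To relate these numbers to other genes, regions were counted in the same way, without the rule on sharing, in the gene body and 20 kb flanks of all 21938 protein-coding genes. The median gene had 3 regions (quartiles 1 and 5) and 3.86 regions per 100 kb of window (quartiles 1.496 and 6.88). The 10 members had 4 to 14 regions with a median of 7.5, and 5.15 to 19.1 regions per 100 kb with a median of 8.89. All 10 lay above the median of all genes on both measures. Values of this size were not particular to them. The 50 other junction genes described below had medians of 7.0 regions and 7.06 per 100 kb. For 15 mTEC markers, which include Epcam, Cldn3 and Cldn4, the medians were 7.0 and 11.67.

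The order by density placed Cldn4 first, with 19.1 regions per 100 kb at percentile 99.5 of protein-coding genes, and then Cldn3 with 17.0 (percentile 98.8). These 2 windows overlap and both count the region of 751 bases. Cdh1 followed with 13.1 (percentile 95.8) and Epcam with 10.9 (percentile 91.6). Cldn7 had 9.28, Itga6 8.51, Pdpn and Ocln 8.32 each and F11r 7.46. Tjp1 was last with 5.15 (percentile 62.9), although it had as many regions as Cdh1, because its window is 271.6 kb long and that of Cdh1 106.9 kb. With so few regions per window and no replicate values, no error can be attached to this order.

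**Figure D3:**
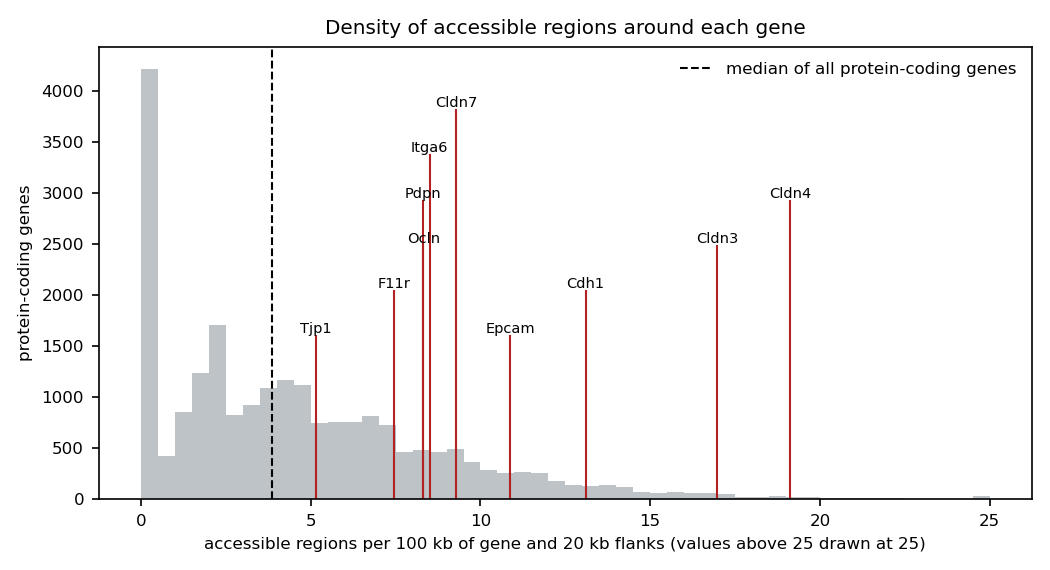
Number of protein-coding genes (vertical axis) by accessible regions per 100 kb of gene body and 20 kb flanks (horizontal axis), as grey bars, with the 10 described genes as red lines and the median of all genes, 3.86, as a dashed line. All 10 lie to the right of the median, from Tjp1 at 5.15 to Cldn4 at 19.1.

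Away from promoters and own basic starts, 65 regions of the members remained, with a median width of 208 bases (quartiles 105 and 308). All 44623 regions outside promoters had a median of 176 bases (quartiles 108 and 308). The whole set keeps regions that cover a start but are centred outside the promoter window. The 65 leave such regions out only at the member's own basic starts, not at the start of a neighbour. The 65 still hold 1 region over comprehensive starts of Tjp1 and 1 over a comprehensive start of Itga6. They also hold regions over exons of Tango6, Pdk1, Mettl27 and Wbscr25. By gene, the median ran from 105 bases at Tjp1 to 319 at Pdpn. The 95% binomial interval of the members' median was 171 to 287 bases. It treats regions of 1 gene as independent, so it tests no difference from the whole set. Their median GC content was 52.3%, compared with 52.0%. In GC content the members' regions were thus within 1 percentage point of the whole set.

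Motifs in these regions were counted in the 200 bases around each centre, which reaches past the edges of narrower regions. The AP-1 letters TGANTCA were found in 16 of the 65 (24.6%), compared with 22.1% of all regions outside promoters. For the ETS letters AGGAAG the count was 17 (26.2%, compared with 26.0%), and for CCGGAA it was 3 (4.62%, compared with 4.40%). The E-box was found in 12 (18.5%, compared with 23.2%), the Krüppel-like letters in 3 (4.62%, compared with 9.44%) and the Grainyhead-like letters in 3 (4.62%, compared with 3.83%). The ETS and Grainyhead-like shares lay within 1 percentage point of the background. The 3 Grainyhead-like matches were in intron 2 of Cdh1, where 2 regions held one, and in the region 47.1 kb before Itga6.

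In the 250 bases before the start, 8 of the 10 genes could be searched, using the first entry of each in the table. For Cldn7 this was the inner entry, so its stretch overlaps an exon and a UTR of Cldn7 itself. The stretch before the outer entry of Cldn7, with no accessible base, was not searched. That of F11r also overlaps an exon and a UTR of its own gene and an exon of Gm26641. The Krüppel-like letters were present at Epcam, Cldn3, Tjp1 and F11r, 4 of 8 genes, compared with 17.9% of 16522 genes. E-boxes were present at Epcam, Cldn4 and F11r, compared with 16.6%. The AP-1 letters were present at Cldn4 and F11r, compared with 6.22%, and CCGGAA at Cldn7 and Ocln, compared with 15.6%. AGGAAG was present at Cldn7 alone, compared with 28.5%, and the Grainyhead-like letters at none, compared with 3.69%. Of the 15 matches in all, 0 pairs of different motifs shared a base. Pdpn was the only gene of the 8 with no match. The GC content of the searched stretches was 56.4% to 64.0%, apart from Pdpn at 43.2%, compared with a median of 56.0% over the 16522 genes. The part of base composition in these shares was not tested. With 8 genes these shares are a description, with no test.

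Of the 65 regions, 3 held 3 different motifs, 1 each at Pdpn, Tjp1 and Cdh1. Those of Pdpn and Tjp1 are shown, together with the smaller of the close pair between the claudins, as examples of the distal sequence. They are read 5′ to 3′ on the plus strand of GRCm38.p6, with motif matches in capitals. For Pdpn and Cldn3 the central 200 bases are given, and for Tjp1 the whole region.
Pdpn intron 1, chr4:143278518-143278717: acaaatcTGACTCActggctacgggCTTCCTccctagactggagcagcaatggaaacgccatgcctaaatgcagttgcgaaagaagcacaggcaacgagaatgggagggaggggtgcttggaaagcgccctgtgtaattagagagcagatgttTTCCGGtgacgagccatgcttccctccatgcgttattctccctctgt
Between Cldn4 and Cldn3, chr5:134967388-134967587: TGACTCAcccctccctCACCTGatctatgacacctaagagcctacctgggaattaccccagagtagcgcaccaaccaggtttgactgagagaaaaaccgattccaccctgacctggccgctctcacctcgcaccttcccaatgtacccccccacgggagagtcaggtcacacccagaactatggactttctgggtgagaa
Tjp1, upstream of the basic starts, chr7:65387693-65387870: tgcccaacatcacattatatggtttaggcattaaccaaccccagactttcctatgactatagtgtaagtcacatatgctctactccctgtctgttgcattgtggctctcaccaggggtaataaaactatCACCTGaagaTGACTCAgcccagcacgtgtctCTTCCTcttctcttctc
All 3 held the AP-1 letters in the form TGACTCA on this strand. In the Pdpn region they were joined by both ETS forms, and in the Tjp1 region by an E-box that ends 4 bases before them and by AGGAAG on the minus strand. These regions were chosen for their matches, so the matches are no finding about them.

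Beyond the 10 genes, 50 other genes of the same structures were looked up. A region over a start was found at 45 of them (90.0%), compared with 56.4% of all protein-coding genes. A promoter region by centre was found at 39 (78.0%), compared with 48.6%. Adherens junction genes had a region over a start in 9 of 9 cases and desmosome genes in 8 of 8. Tight junction genes had one in 13 of 16 and genes of basement membrane adhesion in 10 of 12. The 5 relatives and partners of Epcam all had one.

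The 11 genes without a promoter region by centre were Cldn1, Cldn6, Cldn8, Tjp3, Afdn, Dsc2, Itgb1, Itgav, Col17a1, Spint2 and Cd9. In 7 of them a region nevertheless lay over a start, with its centre between 127 bases (Cldn1) and 219 bases (Itgb1) away. The exceptions were Cldn6, Cldn8, Tjp3 and Col17a1. The fifth gene without a region over a start was Itgb6, an integrin subunit, whose 2 promoter regions, the wider of 76 bases, did not reach the start. Cldn8, a claudin of distal kidney tubules and colon, and Col17a1, the hemidesmosomal collagen XVII, had no region at all in their gene and 20 kb flanks. The nearest region centres were 147741 bases and 39354 bases from their starts. Cldn6, a claudin of embryonic epithelia, had none at its start but 11 regions in its window. The widest promoter regions of this list belonged to Plec, which links keratin to hemidesmosomes, with 1184 bases, Nectin2 with 990 and Lamb3 with 936.

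The labelled cell type was checked against marker genes. All 15 mTEC markers looked up, among them Krt5, Krt14, Aire and H2-Ab1, had a region over a start. The list includes Epcam, Cldn3 and Cldn4 themselves. Cells had also been sorted on Epcam, MHC class II (H2-Ab1 and H2-Aa) and CD45 (Ptprc), so the check in part repeats the sort. Of 28 genes that mark other cells or tissues, 5 had one, compared with 56.4% of all protein-coding genes. None of the 7 haematopoietic genes, such as Ptprc and Cd3e, had one, and among 6 endothelial genes only Kdr did. Of 6 mesenchymal genes 2 had one, Cdh2 and the fibroblast receptor gene Pdgfra, whose region had its centre 277 bases from the start. The other two of the 5 were Prss16 and Ly75. By centre, 5 of the 28 had a promoter region, Kdr, Cdh2, Prss16, Ly75 and Cldn11, compared with 48.6% of all protein-coding genes. Prss16, a protease of cortical thymic epithelium, had the widest, with 1285 bases, followed by Cdh2, which encodes N-cadherin, with 634 and Ly75 with 585. Of the 4 genes of cortical epithelium, Prss16 and Ly75 thus had a region, while Psmb11 and Enpep had none at their promoter. Of the 5 claudins known from other tissues, only Cldn11 had a promoter region, of 113 bases, and it did not reach the start. The part of other cells in the regions at the 10 genes was not tested.

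**Figure D4:**
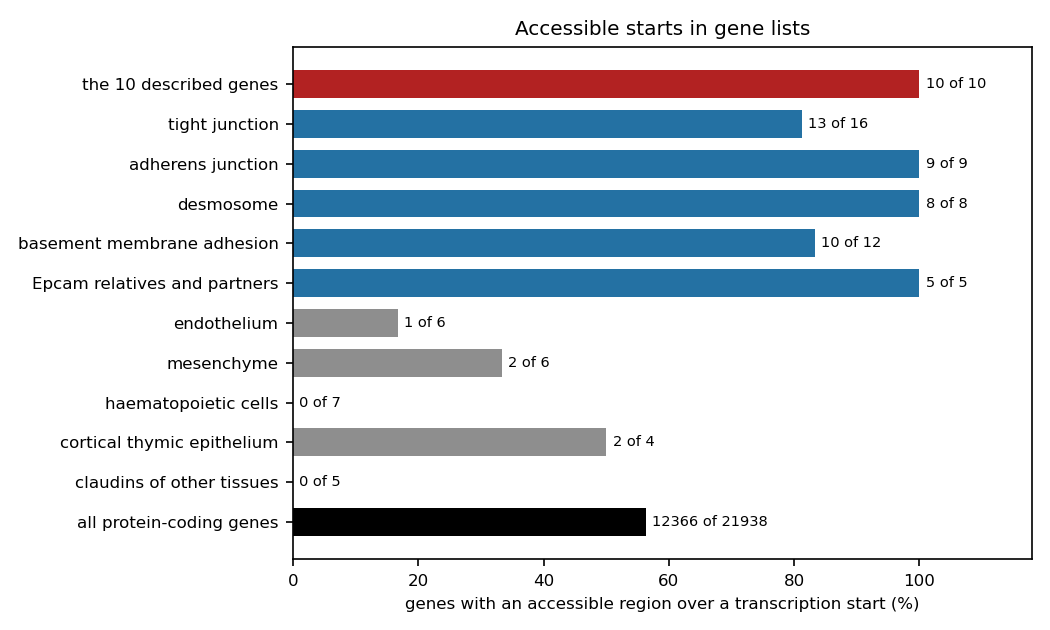
Share of genes with an accessible region over at least 1 transcription start, in percent, with the counts beside each bar; red is the set of 10 described genes, blue are lists of other junction genes, grey are lists for other cell types or tissues and black is all protein-coding genes (56.4%). The blue bars lie between 81.2% and 100%, and the grey bars at or below 50%.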

How the data were processed

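ATAC-seq was done on sorted mTECs, 2 replicates in each of 4 groups. According to the study's methods, the authors aligned reads to mm10 with Bowtie2, filtered mitochondrial, multimapping and low-quality reads with SAMtools and removed duplicates by Picard. Peaks came from MACS2 in its broad mode, and bedtools joined them into consensus regions. Whether calls were made per sample is not given in the sources used here. The table deposited by the authors gives each merged region's start, end and width in bases and, per the file headers, was written by featureCounts 2.0.3. Its 8 count columns match no sample label and were used in no step, so the planned group comparisons were not run. A merged region can be wider than any single call, and repeated sequence is under-represented without multimapping reads.

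Regions were joined to the GENCODE M21 annotation on GRCm38, whose chromosome lengths hold all regions. Starts came from basic transcripts unless stated otherwise, introns are numbered in the principal transcript, and ties count equally on both sides in percentiles. The interval and motif searches were tested on simulated data. No statistical test was run, and the interval of a median is the 95% binomial one.

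All 10 genes are named. Of the junction and other cell type lists, the genes with or without a promoter region are named, whichever are fewer, with the 3 widest promoter regions. Other genes are named where they lie in a window, and further list genes as examples chosen after their values were seen. The genes, lists and motifs were chosen with earlier results of these data known. Alternatives varied the flank, the minimum width, masking, the transcript set and the promoter definition. Computation used pandas 2.3.3 and numpy 2.4.6 under Python 3.11.15, and plots were drawn with matplotlib 3.10.9.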

Additional observations from a re-analysis of the deposited data

How the results depend on the processing

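No paired analysis was possible because none of the deposited count columns can be tied to a sample or a replicate number. For the same reason the edgeR comparison and its alternatives (replicate block, DESeq2, no filter, each replicate left out) were not run. Of 38 alternatives over 7 results, 29 stayed within 1.5 times the count or within the 95% binomial interval of the value. Some of the 29 were fixed in advance, as the transcript set enters neither the number of regions nor their median width. The counts among the 10 and the 50 genes were too near their maximum to rise 1.5 times. The 29 are thus no measure of how robust the results are. The 84 regions of the 10 genes became 54 with the gene body alone and 52 with regions of at least 200 bases, as both leave regions out by construction. The latter also raised their median width from 254.5 to 350.5 bases. Promoter regions were found at 48.6% of protein-coding genes, and at 56.4% if overlap with a start was required, 63.1% with any overlap within 1000 bases of a start, 55.6% with comprehensive transcripts and 44.4% with regions of at least 200 bases. Its interval is narrow because it rests on 21938 genes. Genes of other cell types with a promoter region rose from 5 to 8, both with any overlap within 1000 bases and with comprehensive transcripts. The count of the 10 genes with a promoter region was 9 or 10 and that of the 50 junction genes 38 to 47 in every alternative run. Depth and replicate error were not analysed here, and genes and regions are not replicates.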
